A study of Mus musculus with 6 samples.

Results

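The dentate granule neuron identity genes are 9 genes that mark the principal neurons of the dentate gyrus: Prox1, Dsp, Calb1, Tdo2, Lct, C1ql2, C1ql3, Fam163b and Stxbp6. They were chosen by name as known granule neuron genes, with earlier results of these data known. Each was found by its symbol in the authors' comparison table and joined by Ensembl identifier to the count and FPKM tables. All 9 were present among the 30821 genes with a count in at least 1 library, and all 9 passed the low-count filter. Each library held hippocampal RNA of 1 male C57BL/6J mouse. The 3 TAF15 OE mice had received an adeno-associated virus (AAV) with TAF15 in the CA1 field on both sides, under the CaMKIIα promoter, which is active in excitatory neurons. The 3 Control mice received a control AAV in the same way. Mice were 8 weeks old at injection, and 31 days is the time labelled for both groups, so all 6 mice had had surgery and a virus. The injected field was CA1, and the tissue was the hippocampus as a whole, so the dentate gyrus was sampled together with all other fields.

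The granule neuron receives cortical input through the perforant path and sends its axon, the mossy fibre, to mossy cells and to CA3 pyramidal neurons. Its fate depends on the homeodomain factor Prox1, and the mature cell is known for a high content of the calcium buffer calbindin, encoded by Calb1. The C1q-like proteins encoded by C1ql2 and C1ql3 are secreted from mossy fibre terminals, where they help to gather kainate-type glutamate receptors. Several members are also made elsewhere: Calb1 in CA1 pyramidal neurons and interneurons, and Prox1 in some interneurons and in oligodendrocyte precursors.

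Totals lay between 14965464 and 16067000 counts per library. Taf15, the gene carried by the vector, gave 61.6, 63.4 and 52.9 CPM for Control mice 1 to 3, against 248.5, 240.3 and 271 CPM for TAF15 OE mice 1 to 3 (4.27-fold higher, SE 0.086 on the log2 scale, adjusted p = 4.96e-07 by edgeR). CPM is a gene's count scaled to its library's total times that library's TMM scaling factor from edgeR. Errors below are SDs over the 3 mice of a group. The genes of the choroid plexus, a tissue of the ventricles beside the hippocampus, summed to 147 CPM in Control 1 and 1539 in TAF15 OE 1 but to between 4299 and 5001 in the other 4 libraries. The members were therefore also tested without Control 1 and TAF15 OE 1, and for the gene lists below the counts that this moved are given. A gene was called where edgeR's quasi-likelihood test gave a Benjamini-Hochberg p below 0.05 across all 16758 genes that entered it. On that rule 997 genes fell and 1562 rose, 61.0% of the total being higher. That share was 71.6% where libraries were scaled to their totals and 96.6% where they were scaled on 16 pan-neuronal genes. The pan-neuronal scaling moved the median of all tested genes from 0.026 to 0.27 on the log2 scale, with 5250 genes called higher and 186 lower.

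Of the 9 granule neuron genes, 5 fell in TAF15 OE and 4 did not pass the test, and none rose. Among all tested genes, 15.3% were called, 5.95% lower and 9.32% higher. The 5 that fell were the desmosome gene Dsp, the tryptophan enzyme gene Tdo2, the lactase gene Lct, the membrane protein gene Fam163b and the calbindin gene Calb1, by between 0.57 and 1.18 on the log2 scale. The 4 that were not called were Prox1, C1ql2, C1ql3 and Stxbp6, whose log2 fold changes lay between -0.16 and -0.0059, and all turned positive under pan-neuronal scaling. The groups did not overlap in the 5 called genes, all lower in TAF15 OE, as against 34.6% of all tested genes without overlap, 15.5% lower and 19.1% higher. The median of the 9 was -0.57, against 0.026 for all tested genes. In bulk tissue, fewer granule neurons and less RNA per granule neuron cannot be told apart.

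**Figure D1:**
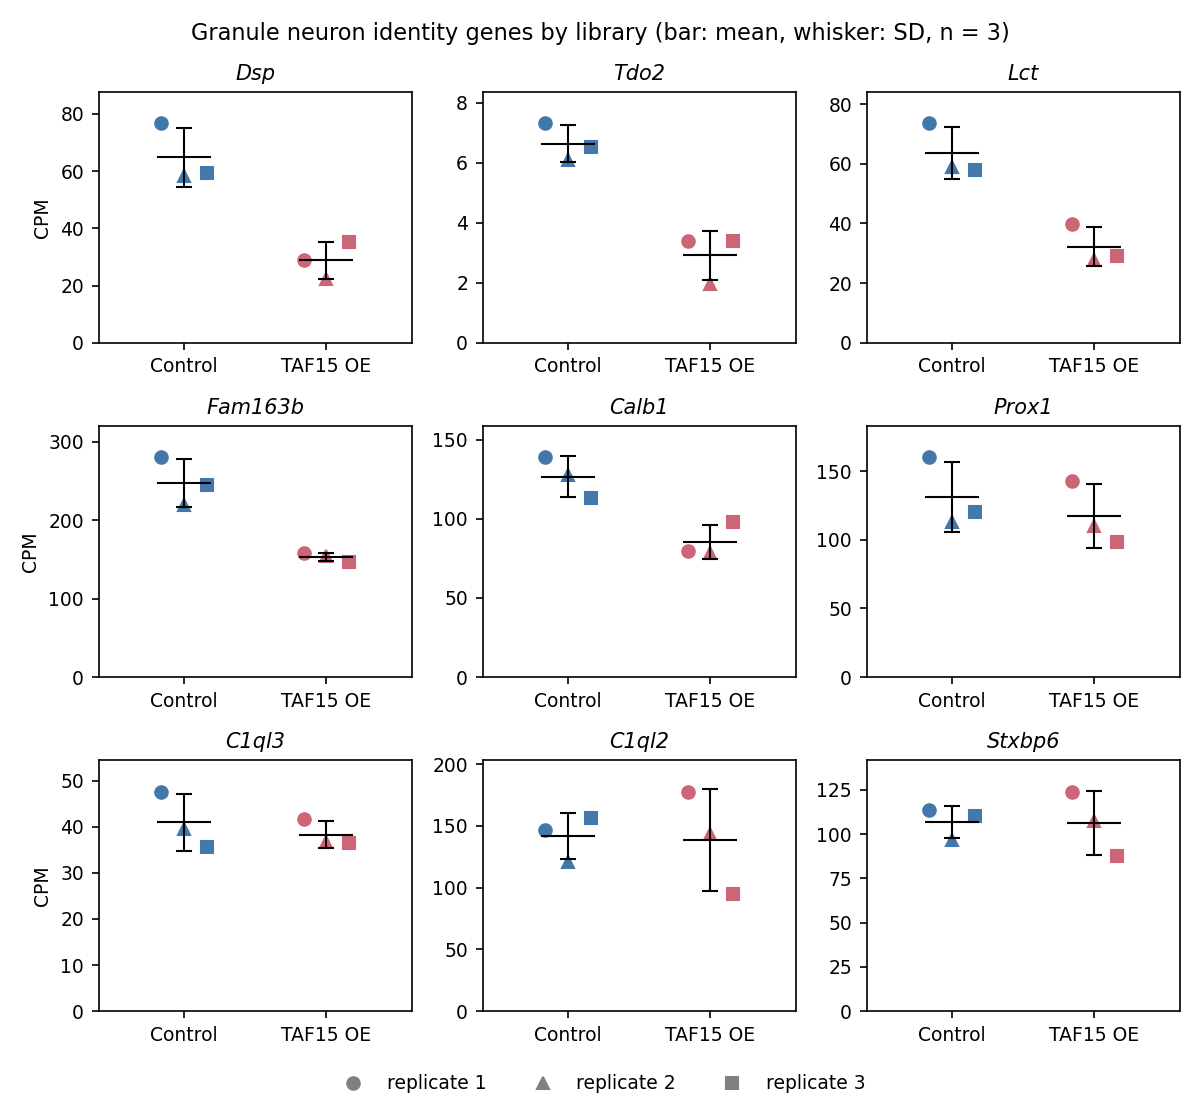
Level of each of the 9 genes in CPM (vertical axis, from 0) in the 3 Control (blue) and 3 TAF15 OE (red) libraries, with marker shape for the replicate number, a bar for the mean and a whisker for the SD. In Dsp, Tdo2, Lct, Fam163b and Calb1 all red points lie below all blue points, and in the other 4 genes the groups overlap.

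Dsp encodes desmoplakin, which ties intermediate filaments to the desmosomes of epithelium and heart and is used in the hippocampus as a granule neuron marker. The gene (ENSMUSG00000054889) lies on chromosome 13 from 38151294 to 38198577, plus strand, in GRCm38. It gave 76.7, 58.3 and 59.5 CPM for Control mice 1 to 3, against 28.8, 22.4 and 35.3 CPM for TAF15 OE mice 1 to 3. The highest TAF15 OE library was thus well below the lowest Control library. Mean CPM fell 2.25-fold, 64.8 ± 10.3 becoming 28.8 ± 6.44 (log2 fold change -1.17, SE 0.18, adjusted p = 0.00606 by edgeR). Only 0.137% of tested genes had a lower log2 fold change.

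Tdo2 encodes tryptophan 2,3-dioxygenase, which opens the indole ring of tryptophan at the entry to the kynurenine pathway and is best known from liver. The gene (ENSMUSG00000028011) lies on chromosome 3 from 81957090 to 81976202, minus strand. It is the scarcest of the 9, at 108, 92 and 98 counts for Control mice 1 to 3, against 53, 30 and 56 for TAF15 OE mice 1 to 3. TAF15 OE 2 was the lowest library, and the groups were far apart even at this depth. Mean CPM fell 2.27-fold, 6.64 ± 0.625 becoming 2.91 ± 0.819 (log2 fold change -1.18, SE 0.23, adjusted p = 0.00768 by edgeR). On log2(FPKM + 1), where a low gene moves less, the log2 difference was -0.61 (adjusted p = 0.0297 by limma).

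Lct encodes lactase, the intestinal enzyme that splits milk sugar, whose transcript is also found in granule neurons. The gene (ENSMUSG00000026354) lies on chromosome 1 from 128284756 to 128328318, minus strand. It gave 73.5, 59.0 and 58.1 CPM for Control mice 1 to 3, against 39.7, 27.8 and 29.1 CPM for TAF15 OE mice 1 to 3. In both groups the replicate 1 library was the highest of its group, and the groups stayed apart. Mean CPM fell 1.98-fold, 63.6 ± 8.67 becoming 32.2 ± 6.53 (log2 fold change -0.98, SE 0.15, adjusted p = 0.00428 by edgeR).

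Fam163b encodes a small membrane protein whose function is little known. The gene (ENSMUSG00000009216) lies on chromosome 2 from 27110380 to 27142491, minus strand. It gave 280.0, 219 and 245 CPM for Control mice 1 to 3, against 158, 154 and 147 CPM for TAF15 OE mice 1 to 3. The TAF15 OE libraries lay close together, with an SD of 5.57 CPM against 30.6 in Control. Mean CPM fell 1.62-fold, 248 becoming 153 (log2 fold change -0.70, SE 0.088, adjusted p = 8.46e-04 by edgeR), the smallest p of the 9.

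Calb1 encodes calbindin, a cytosolic protein that binds calcium entering the cell and shapes its transients. The gene (ENSMUSG00000028222) lies on chromosome 4 from 15881264 to 15908064, plus strand. It gave 139, 128 and 114 CPM for Control mice 1 to 3, against 80.0, 78.4 and 98.0 CPM for TAF15 OE mice 1 to 3. TAF15 OE 3 came nearest to the Control range, below the lowest Control library. Mean CPM fell 1.48-fold, 127 ± 12.7 becoming 85.4 ± 10.9 (log2 fold change -0.57, SE 0.10, adjusted p = 0.00544 by edgeR), the smallest of the 5 falls.

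Prox1, the factor that sets and keeps granule neuron fate, gave 160.0, 113 and 120 CPM for Control mice 1 to 3, against 143, 110 and 98.7 CPM for TAF15 OE mice 1 to 3. The gene (ENSMUSG00000010175) lies on chromosome 1 from 190118035 to 190170714, minus strand. The groups overlapped, because TAF15 OE 1 was above Control 2 and 3. The log2 fold change was -0.16 (SE 0.18, 95% interval -0.61 to 0.28, adjusted p = 0.623 by edgeR). The interval thus includes a fall as large as that of Calb1 but not those of Dsp, Tdo2, Lct or Fam163b.

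C1ql2 and C1ql3, the secreted organisers of mossy fibre synapses, did not pass the test either. C1ql2 (ENSMUSG00000036907, chromosome 1, 120340582 to 120343174, plus strand) gave 147, 121 and 157 CPM for Control mice 1 to 3, against 178, 143 and 95.2 CPM for TAF15 OE mice 1 to 3. TAF15 OE therefore held both the highest and the lowest of the 6 values. Its log2 fold change was -0.028 (SE 0.25, 95% interval -0.66 to 0.61, adjusted p = 0.959 by edgeR), the widest interval of these 4. C1ql3 (ENSMUSG00000049630, chromosome 2, 13003457 to 13011806, minus strand) gave 47.6, 39.5 and 35.6 CPM for Control mice 1 to 3, against 41.7, 36.7 and 36.4 CPM for TAF15 OE mice 1 to 3. All 3 TAF15 OE values lay within the Control range (log2 fold change -0.096, SE 0.11, 95% interval -0.34 to 0.15, adjusted p = 0.623 by edgeR).

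Stxbp6 encodes amisyn, a syntaxin-binding protein that holds back vesicle fusion. The gene (ENSMUSG00000046314) lies on chromosome 12 from 44852484 to 45074709, minus strand. It gave 114, 96.6 and 110 CPM for Control mice 1 to 3, against 124, 108 and 87.7 CPM for TAF15 OE mice 1 to 3. As with C1ql2, TAF15 OE held both the highest and the lowest value. The log2 fold change was -0.0059 (SE 0.12, 95% interval -0.28 to 0.27, adjusted p = 0.982 by edgeR). The intervals of C1ql3 and Stxbp6 do not reach the falls of the 5 called genes.

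Some reads of these genes could belong to a neighbour, since the strandedness of the counting was not given. In GENCODE M21 the exons of Prox1 overlap those of the antisense gene Prox1os, with between 32 and 55 counts per library against 1629 or more for Prox1. The exons of C1ql3 overlap the antisense genes Gm37824, with between 51 and 88 counts, and Gm37811, with between 7 and 18, against 536 or more for C1ql3. The exons of Dsp overlap Gm10129, with 3 counts at most. Stxbp6 shares no exon with the 2 genes it overlaps, and Calb1, Tdo2, Lct, C1ql2 and Fam163b overlap no other annotated gene.

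The split between falling and uncalled genes held under every setting that was run. In each of 17 alternatives (other scalings, filters and tests, FPKM in place of counts, the replicate number as a term, and libraries left out) the same 5 genes were called lower. The lowest and highest log2 fold changes were -1.35 and -0.92 for Dsp, -1.33 and -0.61 for Tdo2, and -1.19 and -0.74 for Lct. For Fam163b they were -0.78 and -0.45, and for Calb1 -0.69 and -0.32. Prox1, C1ql2, C1ql3 and Stxbp6 were called in none of the 17. Their sign is not settled: it turned positive in 2 alternatives for Prox1, 2 for C1ql3, 4 for C1ql2 and 7 for Stxbp6, the scaling on pan-neuronal genes among them in each case. The authors' deposited table gives ratios of TAF15 OE over Control of 0.435 for Dsp, 0.430 for Tdo2, 0.496 for Lct, 0.604 for Fam163b and 0.660 for Calb1. Their largest adjusted p in the authors' deposited table is 5.45e-04, where 7.53% of the genes with an adjusted p are lower at 0.05. The ratios there for Prox1, C1ql2, C1ql3 and Stxbp6 lie between 0.876 and 0.976, with an adjusted p of at least 0.454 in the authors' deposited table.

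**Figure D2:**
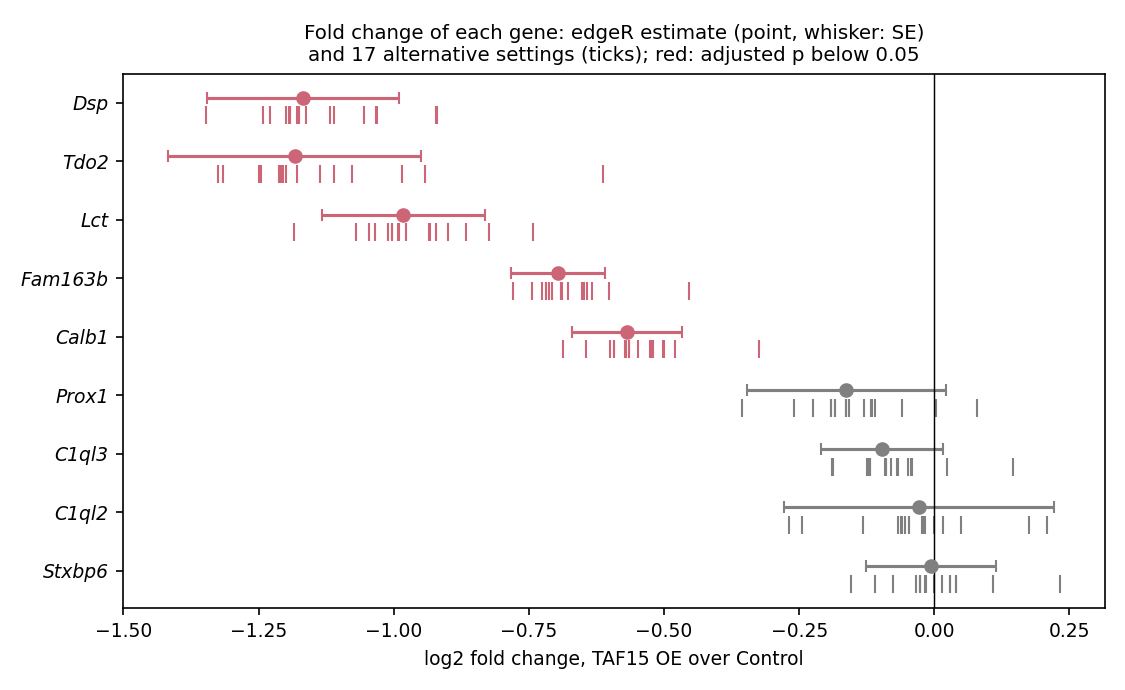
Log2 fold change of TAF15 OE over Control (horizontal axis) for each gene, as the edgeR estimate with its SE (point and whisker) and under the 17 alternatives (ticks), in red where the adjusted p was below 0.05 and grey otherwise. All points and ticks of Dsp, Tdo2, Lct, Fam163b and Calb1 are red and below 0, and those of Prox1, C1ql3, C1ql2 and Stxbp6 are grey and lie on both sides of 0.

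Control 1 was the highest Control library in 8 of the 9 genes, C1ql2 being the exception. The order was less alike in TAF15 OE. TAF15 OE 1 was the highest of its group in 6 of 9, and TAF15 OE 3 in the other 3, Dsp, Tdo2 and Calb1. Control 1 and TAF15 OE 1 are the libraries with few choroid plexus transcripts. The share of all genes with these libraries highest was not computed. The part of choroid plexus content in these levels was not tested, and without both libraries the same 5 genes were called.

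Ratios within a library do not depend on its scaling and show how the members stood to one another. Per 1000 counts of Prox1, Dsp had 480, 514 and 495 for Control mice 1 to 3, against 201, 204 and 357 for TAF15 OE mice 1 to 3. Lct had 460, 521 and 483 against 277, 253 and 295, and Tdo2 45.8, 53.7 and 54.2 against 23.6, 17.9 and 34.4. Fam163b had 1750, 1934 and 2035 against 1106, 1400 and 1491. In these 4 genes every TAF15 OE ratio was below every Control ratio. An exact two-sided permutation test over 3 against 3 libraries gave p = 0.1 for each, the smallest it can give, and 0.2 after adjustment over the 8 ratios. The ratio of Calb1 to Prox1 overlapped between the groups, at 868, 1129 and 944 for Control mice 1 to 3, against 559, 714 and 993 for TAF15 OE mice 1 to 3 (exact permutation p = 0.3). Ratios to Prox1 overlapped too for C1ql2, C1ql3 and Stxbp6, whose mean ratios in TAF15 OE were 1.07, 1.06 and 1.10 times those in Control.

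**Figure D3:**
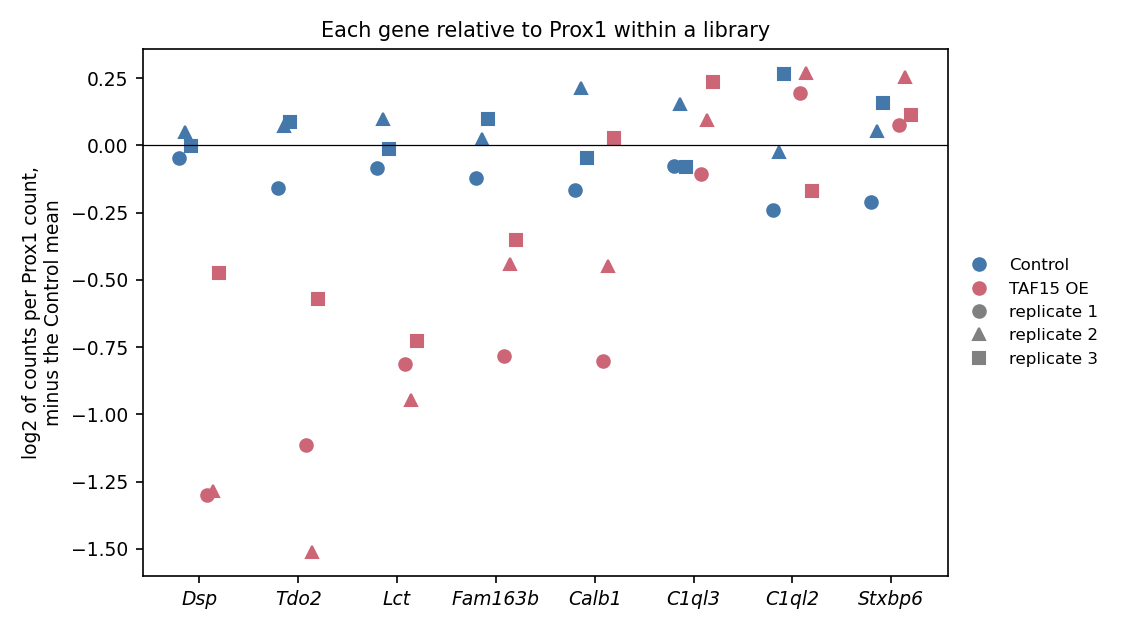
Counts of each gene per count of Prox1 in the same library, on a log2 scale with the Control mean of each gene set to 0 (vertical axis), for the 3 Control (blue) and 3 TAF15 OE (red) libraries, with marker shape for the replicate number. The red points of Dsp, Tdo2, Lct and Fam163b lie below all blue points, while those of Calb1, C1ql3, C1ql2 and Stxbp6 overlap the blue points.

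FPKM, which divides by gene length, allows levels to be compared between genes. In Control the order by mean FPKM was Fam163b (82.3 ± 8.63), C1ql2 (69.5 ± 8.64), Calb1 (25.7 ± 2.31), Stxbp6 (19.8 ± 1.39), C1ql3 (15.9 ± 2.11), Prox1 (15.4 ± 2.65), Lct (9.75 ± 1.15), Dsp (6.59 ± 0.925) and Tdo2 (1.68 ± 0.127). The libraries of Fam163b and C1ql2 overlapped, as did those of C1ql3 and Prox1, and the other neighbours were apart. In TAF15 OE, C1ql2 (70.3 ± 20.2 FPKM) stood above Fam163b (52.5 ± 1.31) and Stxbp6 (20.4 ± 3.24) above Calb1 (17.9 ± 2.46), with overlap between libraries in both pairs. Calb1 also overlapped C1ql3 (libraries from 14.7 to 16.5), which overlapped Prox1 (14.2 ± 2.62). The 3 scarcest, Lct, Dsp and Tdo2, kept their order, at 5.10, 3.03 and 0.763 FPKM.

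Promoter sequences are shown for members on both sides of this split, to let them be compared letter by letter. RefSeq start sites on GRCm38.p6 were found for 8 of the 9 genes, all but Calb1. Shown are the bases before the start site for the called genes Dsp, Lct and Fam163b and the uncalled genes Prox1 and C1ql2, 5′ to 3′ on the gene's strand. Capitals mark matches, on either strand, to any of 6 motifs: TCGTG (the core bound by NPAS4), the E-boxes CAGCTG and CAGATG, the cyclic AMP response element TGACGTCA, the GC box GGGCGG and the TATA box TATAAA. The windows are chr13:38151044-38151293 for Dsp, chr1:128328319-128328568 for Lct, chr2:27142492-27142727 for Fam163b, chr1:190170828-190171077 for Prox1 and chr1:120340332-120340581 for C1ql2.
Dsp: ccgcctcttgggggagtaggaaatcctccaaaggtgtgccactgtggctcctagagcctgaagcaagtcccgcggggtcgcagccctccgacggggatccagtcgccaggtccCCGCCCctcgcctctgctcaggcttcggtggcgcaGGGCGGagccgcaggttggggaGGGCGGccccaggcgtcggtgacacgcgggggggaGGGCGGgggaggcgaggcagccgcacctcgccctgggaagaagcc
Lct: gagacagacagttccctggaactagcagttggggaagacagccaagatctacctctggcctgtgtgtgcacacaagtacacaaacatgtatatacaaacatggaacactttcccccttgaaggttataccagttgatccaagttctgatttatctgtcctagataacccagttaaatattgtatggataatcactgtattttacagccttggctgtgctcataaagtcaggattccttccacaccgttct
Fam163b: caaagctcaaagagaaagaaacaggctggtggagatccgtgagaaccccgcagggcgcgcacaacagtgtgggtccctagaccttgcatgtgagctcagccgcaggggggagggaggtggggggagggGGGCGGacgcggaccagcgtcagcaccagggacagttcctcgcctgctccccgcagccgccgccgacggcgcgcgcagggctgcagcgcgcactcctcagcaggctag
Prox1: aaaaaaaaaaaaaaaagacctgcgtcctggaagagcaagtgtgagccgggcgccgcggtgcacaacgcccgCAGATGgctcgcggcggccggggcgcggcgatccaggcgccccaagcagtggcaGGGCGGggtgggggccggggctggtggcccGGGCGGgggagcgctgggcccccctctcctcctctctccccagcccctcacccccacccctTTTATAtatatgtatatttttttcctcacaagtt
C1ql2: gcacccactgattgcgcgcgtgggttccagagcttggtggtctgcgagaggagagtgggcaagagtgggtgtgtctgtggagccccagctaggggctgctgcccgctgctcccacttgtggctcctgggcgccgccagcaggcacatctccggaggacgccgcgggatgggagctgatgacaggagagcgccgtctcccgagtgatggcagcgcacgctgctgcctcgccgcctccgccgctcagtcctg
Prox1 has 2 start sites in the table, of which 1 is shown. The upstream windows differed widely in base composition, from 42.8% G and C in Lct to 72.4% in Dsp. Dsp held 4 GC boxes and Fam163b 1, the shown bases of Lct and C1ql2 held no match to any motif, and Prox1 held 2 GC boxes, 1 CAGATG E-box and 1 TATA box. Across 32817 promoter windows of 300 bases, 35.6% held a GC box, 17.2% CAGATG and 13.6% the TATA box. These windows reach 50 bases past the start site, and on that scale C1ql2 holds 1 GC box. The NPAS4 core TCGTG was in 16% of all windows. Among the 8 members with a window of 300 bases it was in that of C1ql3 only, with 1 match. All 250 bases before the start site of C1ql3 lie in an annotated exon of that gene. The same holds for all 250 of Tdo2 and for 226 of Stxbp6, and none of these genes is shown. TGACGTCA, in 1.79% of all windows, and CAGCTG, in 16.3%, were in none of the 8. The window of Tdo2 held 1 TATA box and no other match. No motif was common to the called genes with a window, Dsp, Tdo2, Lct and Fam163b.

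Other genes of the granule neuron were read from lists chosen by function. Of 17 further granule neuron genes, 2 fell and 1 rose, with a median log2 fold change of -0.13, beside 5.95% of all tested genes lower and 9.32% higher. Under pan-neuronal scaling, where 5250 of all 16758 tested genes were higher and 186 lower, none of the 17 was lower and 6 were higher. Their median was 0.11 there, against 0.27 for all tested genes. Without Control 1 and TAF15 OE 1 together 3 were lower and 1 higher, and Sema5b was not called (adjusted p = 0.0557 by edgeR). Rfx3, a ciliary transcription factor, fell, with mean CPM of 121 becoming 91.1 (log2 fold change -0.40, adjusted p = 0.0122 by edgeR). The semaphorin gene Sema5b fell by 0.37 and the synaptic adhesion gene Lrrtm4 rose by 0.45 on the log2 scale. Pdyn, the precursor of the mossy fibre peptide dynorphin, had a log2 fold change of -0.50 (adjusted p = 0.0614 by edgeR). The calls of Rfx3 and Sema5b were lost under pan-neuronal scaling (adjusted p = 0.121 and 0.389). The call of Rfx3 was lost without TAF15 OE 2, that of Sema5b without Control 1, Control 3, TAF15 OE 2 or TAF15 OE 3, and that of Lrrtm4 without any library but Control 1. Pdyn was called without TAF15 OE 1.

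Of 12 transcription factors of the granule lineage and the forebrain, 2 fell and 2 rose, beside 5.95% of all tested genes lower and 9.32% higher. The bHLH factor gene Neurod6 fell, with mean CPM of 183 becoming 118 (log2 fold change -0.64, adjusted p = 0.00164 by edgeR), and the cortical homeobox gene Emx1 fell by 0.64. Both kept the call with each library left out. Id2, an inhibitor of bHLH factors, rose by 0.49 and Lef1, a mediator of Wnt signals, by 0.83, and these calls were lost without Control 1, Control 2 or Control 3, and for Lef1 also without TAF15 OE 2 or TAF15 OE 3. Without Control 1 and TAF15 OE 1 together, 4 of the 12 were lower and 1 higher, and Lef1 was not called (adjusted p = 0.0711 by edgeR). The list median was -0.092, and 0.15 under pan-neuronal scaling.

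Of 12 genes of immature granule neurons and their progenitors, 2 rose and 1 fell, with a median of 0.35, beside 9.32% of all tested genes higher and 5.95% lower. Under pan-neuronal scaling 4 of the 12 were higher and none lower, beside 5250 higher and 186 lower of all 16758 tested genes. Sox11, a factor of newborn neurons, gave 23.3, 18.1 and 21.2 CPM for Control mice 1 to 3, against 42.2, 32.4 and 26.7 CPM for TAF15 OE mice 1 to 3. All TAF15 OE libraries were above all Control libraries (log2 fold change 0.69, adjusted p = 0.0240 by edgeR). Hopx, found in neural stem cells and astrocytes, rose by 0.44, and the Wnt antagonist gene Frzb fell by 0.54. Sox4, a relative of Sox11, had a log2 fold change of 0.31 (adjusted p = 0.152 by edgeR, and 0.00854 under pan-neuronal scaling). Without Control 2 or TAF15 OE 2 all 3 calls were lost, without Control 3 those of Sox11 and Hopx, without Control 1 that of Frzb, and without TAF15 OE 3 those of Frzb and Hopx. Frzb was not called under pan-neuronal scaling (adjusted p = 0.0927).

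The partners of the members were read in the same way, beside 5.95% of all tested genes lower and 9.32% higher. Of 17 tested genes for C1q-like receptors, neurexins, kainate receptors and their relatives, 5 fell and none rose. They included Nrxn3 (-0.43), a neurexin to which C1q-like proteins bind, the adhesion receptor genes Adgrb2 (-0.44) and Adgrb3 (-0.29), the latter a receptor of C1q-like proteins, and the kainate receptor gene Grik5 (-0.30), as log2 fold changes. The count was 3 without Control 2, Control 3 or TAF15 OE 2, and 6 without Control 1 and TAF15 OE 1 together. The list median turned from -0.11 to 0.13 under pan-neuronal scaling. Adgrb3 lost the call without Control 2, Control 3 or TAF15 OE 2, and none of the 4 was called under pan-neuronal scaling (adjusted p from 0.0510 to 0.643). Of 11 calcium buffers and sensors, 5 fell and none rose. Hippocalcin, a calcium sensor of hippocampal neurons encoded by Hpca, fell, with mean CPM of 1677 becoming 942 (log2 fold change -0.83, adjusted p = 0.00168 by edgeR). The neurocalcin gene Ncald (-0.45) and the calmodulin genes Calm3 (-0.44) and Calm2 (-0.36) fell too, and these 4 kept the call with each library left out. Under pan-neuronal scaling Calm2 was not called (adjusted p = 0.210).

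Of 13 genes of the exocytosis machinery on which Stxbp6 acts, 6 fell and 1 rose (all tested genes: 5.95% lower, 9.32% higher). The complexin gene Cplx1 (-0.31), the calcium sensor gene Syt1 (-0.27) and the SNARE gene Snap25 (-0.28) were lower on the log2 scale, and the syntaxin-binding gene Stxbp3 was higher (0.54). Between 1 and 5 were lower with 1 library left out, 4 without Control 1 and TAF15 OE 1 together, and none under pan-neuronal scaling. Syt1 and Snap25 are also among the pan-neuronal genes, so that scaling partly sets their change. Their falls are counted in both lists. Syt1 was not called without Control 1, Control 3 or TAF15 OE 2, Snap25 without Control 1, Control 2, TAF15 OE 2 or TAF15 OE 3, and Stxbp3 without TAF15 OE 2. Of 7 tested desmosomal plaque and linker genes, 1 was called, the periplakin gene Ppl, which rose (log2 fold change 1.24, adjusted p = 0.00935 by edgeR). Its level went from 3.98 to 9.40 CPM, opposite in direction to Dsp. The plakoglobin gene Jup had a log2 fold change of 0.21 and the plakophilin gene Pkp2 of -0.48, neither called. Under pan-neuronal scaling 5 of the 7 were higher, Jup among them (adjusted p = 0.00383 by edgeR), beside 5250 of all 16758 tested genes.

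The kynurenine pathway around Tdo2 was thinly expressed, with 11 of its genes summing to between 21.1 and 24.9 CPM per library. In the edgeR test 0 of its 6 tested genes were called, 0 had an unadjusted p below 0.05, and 0 passed in DESeq2. Of 7 tested genes that granule neurons are known to alter after seizures, 2 fell and none rose (all tested genes: 5.95% lower, 9.32% higher). Both are also interneuron or activity genes: the somatostatin gene Sst (-0.38) and the pentraxin gene Nptx2 (-0.46). The enkephalin precursor gene Penk had a mean of 18.8 CPM among Control mice, against 57.9 among TAF15 OE mice (log2 fold change 1.62, adjusted p = 0.141 by edgeR). Sst lost the call without Control 2 and Nptx2 without Control 1, Control 2, TAF15 OE 2 or TAF15 OE 3, and Penk was called without TAF15 OE 3. Under pan-neuronal scaling neither Sst nor Nptx2 was called (adjusted p = 0.332 and 0.179 by edgeR). In that scaling 1 of the 7 was higher and none lower, beside 5250 higher and 186 lower of all 16758 tested genes.

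Markers of the other neurons of the hippocampus were read next, beside 5.95% of all tested genes lower and 9.32% higher. Of 10 CA1 pyramidal genes, from the injected field, 3 fell and none rose, with a median of -0.38. Pou3f1, a POU factor of pyramidal neurons, fell, with mean CPM of 91.1 becoming 50.7 (log2 fold change -0.85, adjusted p = 3.94e-04 by edgeR). Fibcd1 fell by 0.46 and Spink8 by 0.75 on the log2 scale. Pou3f1, Fibcd1 and Spink8 kept the call with each library left out and under pan-neuronal scaling. In that scaling 3 of the 10 were lower and 1 higher, beside 186 lower and 5250 higher of all 16758 tested genes. The wolframin gene Wfs1 had a log2 fold change of -0.71 (adjusted p = 0.0700 by edgeR) and was called without TAF15 OE 1 or TAF15 OE 3. Without TAF15 OE 3, 6 of the 10 were lower, and without Control 1 and TAF15 OE 1 together 4 were lower.

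Of 12 tested CA3 and CA2 genes, 2 fell, the signalling scaffold gene Rgs14 (-0.55) and Dkk3 (-0.37), the latter not without TAF15 OE 2. The list median was -0.11, and for this and the next lists 5.95% of all tested genes were lower and 9.32% higher. Without TAF15 OE 1, and without Control 1 and TAF15 OE 1 together, 4 of the 12 were lower, and without TAF15 OE 2 the count was 1. Of 6 mossy cell genes 1 fell, Ajap1 (-0.35), which was called with Control 2 left out but not with any other library left out. Of 11 interneuron genes, Sst and the parvalbumin gene Pvalb (-0.48) fell, the former not without Control 2 and the latter not without Control 1, Control 2 or TAF15 OE 3. Of 16 pan-neuronal genes 11 fell, with a median of -0.26, among them the neuronal nuclear antigen gene Rbfox3 (-0.50), Tubb3 (-0.35) and Thy1 (-0.35). The count was 3, 5 and 6 without Control 1, 2 and 3 and 3 and 4 without TAF15 OE 2 and 3, while the median stayed between -0.32 and -0.24. Under pan-neuronal scaling Dkk3, Ajap1, Sst and Pvalb were not called (adjusted p = 0.187, 0.408, 0.332 and 0.176). In that scaling 1 CA3 and CA2 gene was lower and 1 higher. No mossy cell gene was lower and 2 were higher, and no interneuron gene was lower and 3 were higher. Of all 16758 tested genes, 5250 were higher there and 186 lower. Of the 16 pan-neuronal genes 1 was lower, but that scaling is set on their own summed counts, so this count is no separate result. Without Control 1 and TAF15 OE 1 together, Ajap1 and Pvalb were not called (adjusted p = 0.120 and 0.117), which left no mossy cell gene lower. Without these libraries 1 interneuron gene was lower and 1 higher, the reelin gene Reln (adjusted p = 0.0384 by edgeR). Of the 16 pan-neuronal genes, 10 were lower there.

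**Figure D4:**
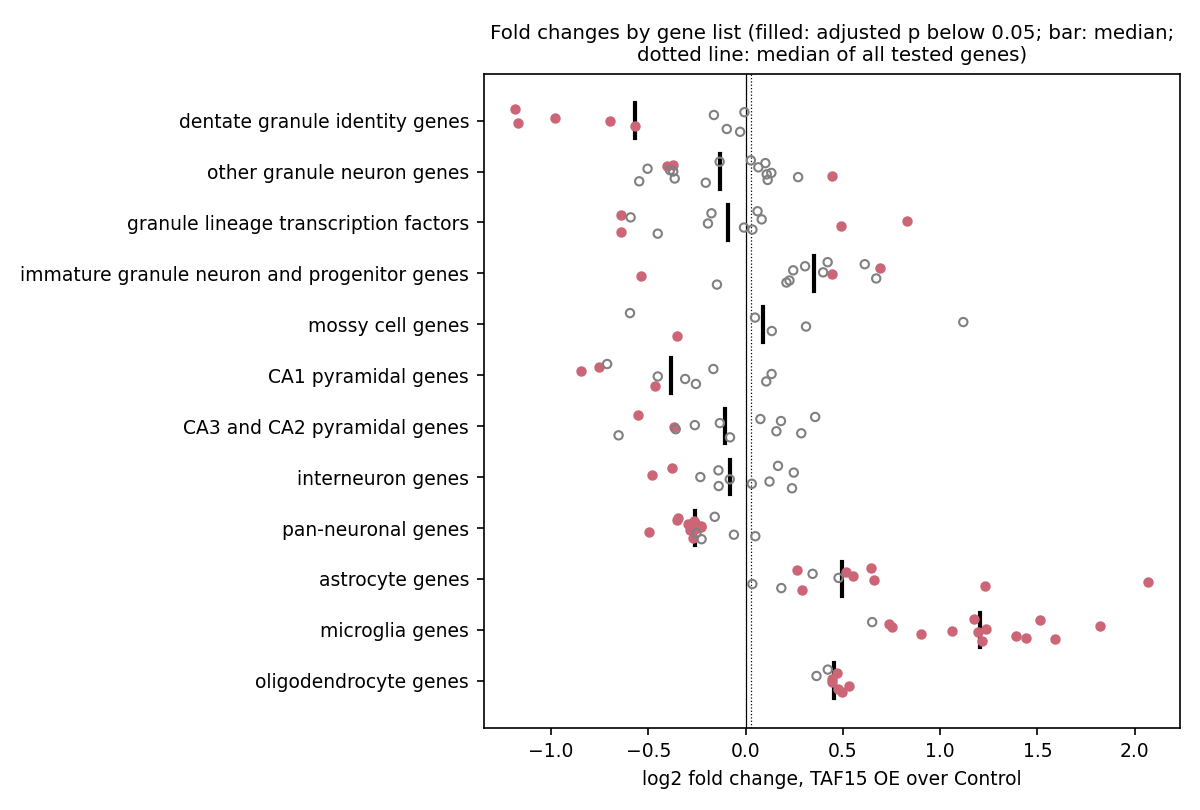
Log2 fold change of TAF15 OE over Control (horizontal axis) for every tested gene of 12 lists, filled where the adjusted p was below 0.05, with a bar at the list median and a dotted line at the median of all tested genes. The granule identity list falls into 5 filled points at or below -0.57 and 4 open points near 0, and the glial lists lie to the right of 0. Under pan-neuronal scaling the medians of the other granule, lineage factor, CA3 and CA2 and interneuron lists turn positive. The median of all tested genes is 0.27 there.

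Set against the pan-neuronal genes of the same library, 4 members were still apart between the groups. Per 1000 pan-neuronal counts, Dsp averaged 6.45 in Control and 3.40 in TAF15 OE, Tdo2 0.662 and 0.343, Lct 6.32 and 3.78, and Fam163b 24.7 and 18.0. Calb1 averaged 12.6 and 10.1 with overlap between the groups, although it was called in the fit scaled on these genes (log2 fold change -0.32, adjusted p = 0.0319 by edgeR). In that fit 1.11% of all genes were called lower, among them the same 5 members. Per 1000 counts of the CA1 genes, Dsp, Tdo2 and Lct stayed apart between the groups, and Fam163b and Calb1 overlapped. Against the CA3 and CA2 genes Dsp, Tdo2, Lct and Fam163b were apart and Calb1 overlapped. Against the interneuron genes all 5 were apart.

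Markers of cells other than neurons moved with the groups, beside 9.32% of all tested genes higher and 5.95% lower. Of 14 microglia genes 13 rose, and their sum went from between 580 and 628 CPM in Control to between 1167 and 1825 in TAF15 OE. Of 12 astrocyte genes 8 rose (sums of 5333 to 6591 against 9009 to 9865 CPM), led by Gfap, the intermediate filament of reactive astrocytes, with a log2 fold change of 2.07. Of 8 oligodendrocyte genes 6 rose, and the sums were 5032 to 5411 against 6191 to 8039 CPM. Of 6 oligodendrocyte precursor genes 1 rose (sums of 350 to 358 against 368 to 467 CPM), of 8 endothelial genes 4 (213 to 266 against 285 to 364 CPM) and of 7 meningeal fibroblast genes 2 (69.1 to 120 against 144 to 155 CPM). No gene of these lists was at 0 in all libraries. With 1 library left out the microglia count was 8 without Control 2 and 9 or more otherwise, and the oligodendrocyte count was 2 without TAF15 OE 2 and 5 or more otherwise. The endothelial count was 0 without Control 2 and 1 without Control 1, TAF15 OE 2 or TAF15 OE 3, and 2 without TAF15 OE 1. The precursor count was 0 without Control 2 or TAF15 OE 2 and 2 without TAF15 OE 3, and the meningeal count was 4 without Control 3 and 1 without Control 1, Control 2, TAF15 OE 2 or TAF15 OE 3. Without Control 1 and TAF15 OE 1 together the endothelial count was 1, the oligodendrocyte count 4 and the astrocyte count 9. The part of these cells in the falls of the granule neuron genes was not tested.

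Genes were ranked by their distance to the mean profile of the 9 members over the 6 libraries. The distance was the root mean square difference between a gene's centred log2 CPM and the mean centred log2 CPM of the members. That mean joins the 5 called and the 4 uncalled members, so a gene near it need not resemble any single member. Among 10827 protein-coding genes whose mean log2 CPM reached 3, the nearest were Dcakd (0.0314), the axon guidance ligand gene Slit1 (0.038), the actin oxidoreductase gene Mical2 (0.0395), the T-type calcium channel gene Cacna1h (0.0545) and the protein kinase C gene Prkce (0.0573). The median distance was 0.314. Slit1 gave 372, 312 and 341 CPM for Control mice 1 to 3, against 261, 207 and 217 CPM for TAF15 OE mice 1 to 3, the pattern of the members' mean. Among the members themselves the closest pair was Dsp and Tdo2, at 0.128, followed by Prox1 and C1ql3 at 0.131 and C1ql2 and Stxbp6 at 0.134. The farthest pair was Dsp and C1ql2, at 0.703.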

How the data were processed

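Counts of hippocampal RNA from 3 Control and 3 TAF15 OE libraries (TruSeq, per the labels' protocols) were used as deposited. The submitters' processing notes name CASAVA, Bowtie2 2.2.3, HISAT2 2.1.0 and TopHat2 and build GRCm38; their roles, the counter, annotation and strandedness are not given in the sources used here. As deposited by the authors, raw counts are whole numbers per Ensembl gene. The FPKM values deposited by the authors match counts divided by length and total to within 3.89e-09 in 8926 genes. The authors' table adds a mean normalised signal, a fold change as a ratio and as log2, and p-values whose test is not named.

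Genes were kept by filterByExpr (minimum count 10, total 15) and tested with edgeR 4.0.16 in R 4.3.3 (TMM, robust glmQLFit, a term for group alone), adjusting p over 16758 genes; intervals are at 95%. Standard errors come from the F statistic. Alternatives used DESeq2 1.42.0, limma 3.58.1 (voom, and trend on log2(FPKM + 1) or log2(FPKM + 0.1) for a mean FPKM of at least 0.5), other scalings, filters, the replicate block and left-out libraries. The members, lists and tests were chosen with earlier results of these data known. All 9 members and Taf15 are named, and up to 4 genes with the smallest p from each list, plus the 5 genes nearest to the members' mean profile. Replicates are separate mice per the series' design text. Figures used matplotlib 3.10.9.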

Additional observations from a re-analysis of the deposited data

How the results depend on the processing

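The count of granule neuron genes called lower was 5 in all 17 alternatives, and with 1 library left out it stayed at 5. Of 153 pairs of a member and an alternative, 138 kept their direction and side of the threshold. The other 15 were sign changes of uncalled genes. Under scaling on pan-neuronal genes the log2 fold changes were 0.079 for Prox1, 0.21 for C1ql2, 0.15 for C1ql3 and 0.23 for Stxbp6. With total counts they were 0.016 for C1ql2 and 0.040 for Stxbp6, and on log2(FPKM + 1) and log2(FPKM + 0.1) that of Stxbp6 was 0.029 and 0.030. With 1 library left out they ran from -0.36 to 0.0033 for Prox1, from -0.27 to 0.18 for C1ql2, from -0.19 to 0.024 for C1ql3 and from -0.15 to 0.11 for Stxbp6. The number of all genes called was 5436 under pan-neuronal scaling, 1551 and 1630 on log2(FPKM + 1) and log2(FPKM + 0.1), and between 1331 and 2500 with 1 library left out (1381, 1523 and 1700 without Control 1, 2 and 3, and 1331 without TAF15 OE 2), and the share of calls that were higher was 71.1% and 71.0% on the FPKM scales; the cause was not tested. With the replicate block, 3289 genes and the same 5 members were called. Same-numbered libraries deviated together weakly (correlations of 0.126, 0.0776 and 0.0871), and each library correlated best with its own number. This is a hint from the data and not from the design. The correlations are not independent of one another, because deviations from a group mean cancel out within the group. Control 1 and TAF15 OE 1 also shared low choroid plexus sums, whose part in these correlations was not tested. Counts of list members under left-out libraries and pan-neuronal scaling were chosen after seeing the data.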
